A study of Mus musculus with 4 samples.

Results

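The mitochondrial ATP synthase subunits described here are 10 nuclear-encoded genes of the 29300 genes in the deposited count table, chosen by their gene symbols. They comprised 5 subunits of the F1 part (Atp5a1, Atp5b, Atp5c1, Atp5d and Atp5e) and 5 of the Fo part (Atp5f1, Atp5g1, Atp5g3, Atp5j and Atp5k). Each was found once, and all 10 passed the filter on low counts. Hippocampal RNA was sequenced from 2 control mice and 2 surgery mice, all C57BL/6 males aged 7 to 8 months, with tissue taken on day 1 after the operation. Surgery mice had a tibial fracture, a mouse model of perioperative neurocognitive disorder. Control mice, labelled sham, had no fracture. Isoflurane anesthesia and tramadol analgesia were given to both groups, so the groups differed in the fracture.

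ATP synthase, also called complex V, sits in the inner mitochondrial membrane and makes ATP from ADP and phosphate as protons flow back into the matrix. Its F1 head carries the catalytic sites in a ring of alternating α and β subunits around the rotating central stalk. Its Fo part holds the proton-driven ring of c subunits, the a subunit encoded by mitochondrial DNA, and a peripheral stalk that keeps the head from turning. Neurons draw much of their ATP for ion pumping and synaptic transmission from this enzyme.

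The 4 libraries held 15763432 to 18573386 counts, and 24238 to 25324 genes were detected in each. Protein-coding transcripts of the mitochondrial genome took 2.52% to 2.82% of the counts in control mice and 4.44% to 4.48% in surgery mice. Every one of the 8 hippocampal subfield markers was detected, with summed levels of 1126 to 1213 CPM (counts scaled to a common library total) in control mice and 1122 to 1245 in surgery mice. The CA1 markers Wfs1 and Fibcd1 and the CA3 marker Grik4 were lower after surgery by edgeR (fold change of at most 0.67, adjusted p under 0.05), while Neurod6 and Zbtb20 were higher at an adjusted p under 0.05 (log2 fold changes 0.53 and 0.44). The median log2 fold change of the 8 was 0.12. Choroid plexus markers set the control mice apart from each other, with summed levels of 131 CPM in control mouse 1 and 5451 CPM in control mouse 2, against 2059 and 3479 in surgery mice. Values without single mice are therefore given where leaving a mouse out took an adjusted p past 0.05. The summed levels of 8 neuronal markers were 6576 to 6826 CPM in control mice and 6021 to 6337 in surgery mice, and those of 7 RNAs retained in nuclei were 8167 to 8370 and 9291 to 10453. Among the neuronal markers, Slc17a7 and Syn1 were lower (log2 fold changes -0.39 and -0.37) and Gad2 was higher (0.32) at an adjusted p under 0.05 by edgeR, and the other 5 did not pass. The summed levels of 8 markers each were 4638 to 4705 against 4760 to 5005 CPM for astrocytes, 301 to 312 against 300.3 to 312 for microglia, 5482 to 6357 against 4043 to 6244 for oligodendrocytes and 245 to 256 against 265 to 358 for endothelial cells. By edgeR at an adjusted p under 0.05, the astrocyte markers Aqp4 (log2 fold change 0.73), Gja1 (0.36) and Slc1a2 (0.29) were higher. Aldoc (-0.50) and Aldh1l1 (-0.49) were lower. P2ry12 of microglia (0.84) and Slco1a4 (0.87) and Flt1 (0.41) of endothelial cells were also higher. Of the nuclear RNAs, Malat1 (0.67), Snhg11 (0.61) and Rian (0.31) were higher and Miat (-0.30) was lower. Of all genes tested, 12.8% were lower and 13.1% higher at this threshold. The 5 red blood cell markers, of which 3 passed the filter on low counts, summed to 5.09 to 8.53 CPM in control mice and 7.29 to 11.2 in surgery mice. With each library's trends with transcript length and GC content removed, 1 subfield marker was lower at an adjusted p under 0.05 by edgeR. No other marker in these lists passed then, beside 0.929% of all genes lower and 0.619% higher. No marker tested in these lists was at 0 in all mice, and the part of these differences in the ATP synthase values was not tested. In bulk tissue, fewer cells of a type and less RNA per cell cannot be told apart.

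Most ATP synthase members were lower in surgery mice. By the edgeR quasi-likelihood test, adjusted by Benjamini-Hochberg over 17144 genes, 7 of the 10 had an adjusted p under 0.05 with a lower level, beside 12.8% of all genes tested. With a fold change of at most 0.67 required as well, 3 of 10 were called lower (Atp5d, Atp5e and Atp5k), beside 2.25% of all genes. Atp5f1 alone had an adjusted p under 0.05 with a higher level, beside 13.1% of all genes, and it missed the fold change of 1.5. None of the members was called higher with the fold change required, beside 6.75% of all genes, whether by edgeR or by DESeq2, and 1 was higher at an unadjusted p under 0.05. Log2 fold changes had a median of -0.47 among F1 members and -0.40 among Fo members, against 0.01 for all genes tested. The calls changed when transcript length and GC content were taken into account. Each library's trends with transcript length and GC content were then removed. The median was -0.37 for the F1 members, -0.49 for the Fo members and -0.37 for all 10, so the order of F1 and Fo turned round. In this fit 7 were lower at an unadjusted p under 0.05, but none had an adjusted p under 0.05. For counts at an unadjusted p, here and below, no share of all genes is given beside them. The lowest adjusted p was then 0.052, and 0.929% of all genes were then lower and 0.619% higher at an adjusted p under 0.05. With the fold change of at most 0.67 required, 0.286% of genes were lower after the correction. With the replicate number as a block beside the same correction, the median was again -0.37 and 7 of 10 members had an adjusted p under 0.05, in a fit where 2301 genes passed in place of 265.

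**Figure D1:**
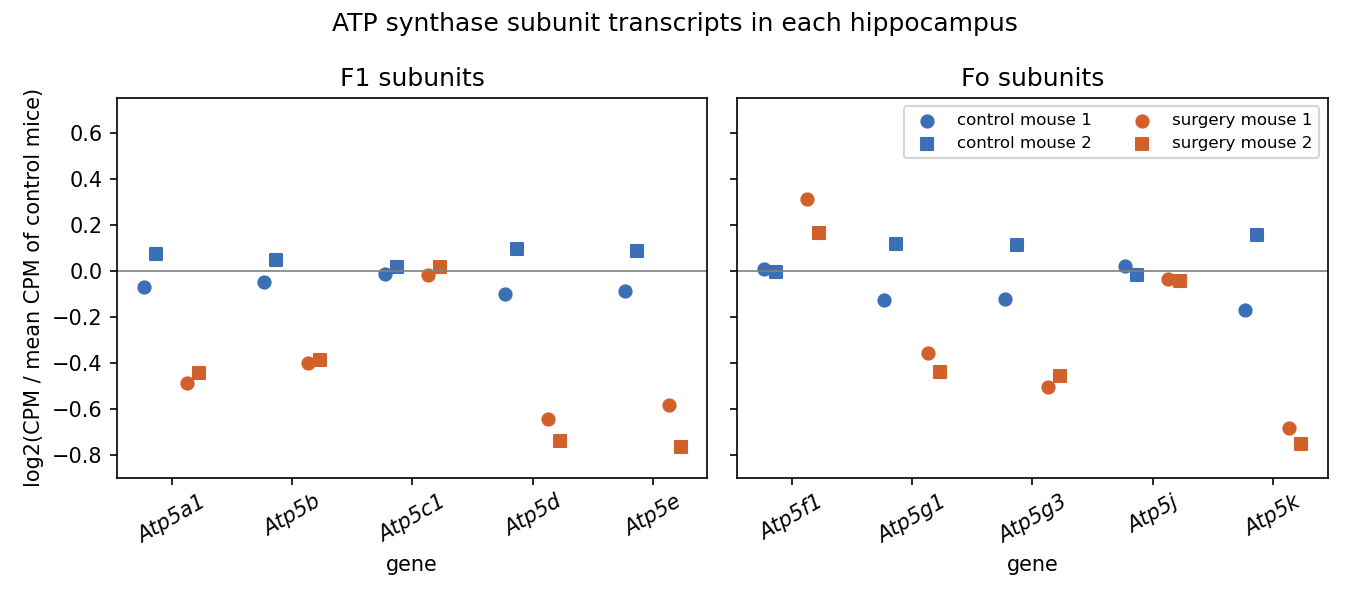
Level of each F1 (left) and Fo (right) subunit transcript in each of the 4 mice, as log2 of the CPM over the mean CPM of the control mice, with 1 point per mouse. Both surgery mice lie below both control mice for Atp5a1, Atp5b, Atp5d, Atp5e, Atp5g1, Atp5g3 and Atp5k, while Atp5c1 overlaps, Atp5j lies close to 0 and Atp5f1 lies above.

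Both surgery mice were below both control mice for 8 of the 10 members, beside 32.2% of all genes tested, and both were above for 1 member, beside 33.2%. The summed counts of the 10 members made up 0.320% and 0.350% of all counts in control mice and 0.265% and 0.267% in surgery mice. Relative to the control mean, the median member stood at -0.08 and 0.08 on the log2 scale in control mice and at -0.44 in each surgery mouse. On this median the surgery mice stood closer to each other than the control mice did.

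Among the F1 subunits, the catalytic ring genes were the most abundant. Atp5a1, which encodes the α subunit, had 1022 and 1129 CPM in control mice and 767 and 790 CPM in surgery mice. The groups did not overlap, and the mean fell by 27.6% (log2 fold change -0.47 ± 0.07 SE, edgeR adjusted p = 0.0064). Atp5b, the β subunit that carries the catalytic site, had 1293 and 1383 CPM in control mice and 1014 and 1020 in surgery mice. It fell by 24.0% (log2 fold change -0.40 ± 0.06, edgeR adjusted p = 0.0071), again with no overlap, and neither gene reached the fold change required for a call. Exons of Atp5a1 overlap those of Haus1 on the opposite strand, which had 66 and 58 counts in control mice and 54 and 68 in surgery mice.

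The 3 central stalk genes of F1 did not move alike. Atp5c1 encodes the γ subunit, the shaft that turns inside the head, and had 163 and 167 CPM in control mice and 163 and 167 in surgery mice. These groups overlapped fully, with a log2 fold change of -0.0019 ± 0.06 (edgeR adjusted p = 0.99). Its sign changed with the scaling, since library totals alone gave 0.05, and with the length and GC correction it was -0.10 (adjusted p = 0.42; 0.25 to 0.99 over all alternatives). Atp5d, the δ subunit at the foot of the stalk (chr10:80138632-80145818, plus strand, mm10), had 202 and 232 CPM in control mice and 139 and 129.9 in surgery mice. Its groups were well apart, and the mean fell by 38.1% (log2 fold change -0.69 ± 0.08, edgeR adjusted p = 0.0048). Atp5e, the small ε subunit (chr2:174461072-174464105, minus strand), had 55.7 and 62.8 CPM in control mice and 39.6 and 34.8 in surgery mice. It fell by 37.2% (log2 fold change -0.67 ± 0.10, edgeR adjusted p = 0.0068). The corrected log2 fold change of Atp5d was -0.38 (edgeR adjusted p = 0.064, and over all alternatives from 9.6e-11, by DESeq2, to 0.064). That of Atp5e was -0.55 (edgeR adjusted p = 0.054, and over all alternatives from 2.5e-05, by DESeq2, to 0.055). Exons of Atp5d overlap those of Cbarp on the opposite strand, and the use of strand in counting is not given in the sources used here. Cbarp was also lower, with 7150 and 7740 counts in control mice and 4603 and 4619 in surgery mice (log2 fold change -0.58 ± 0.06, edgeR adjusted p = 0.0045).

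The Fo subunits were more mixed. Atp5g1 and Atp5g3 encode the same mature c subunit of the rotating ring with different import sequences. Atp5g1 had 108 and 127 CPM in control mice and 91.5 and 86.6 in surgery mice. It fell by 24.2% (log2 fold change -0.40 ± 0.09, edgeR adjusted p = 0.025), but the adjusted p was above 0.05 without control mouse 2 (-0.28, adjusted p = 0.089) and without surgery mouse 2 (-0.36, adjusted p = 0.072), in a range of 0.0020 to 0.089 over all alternatives. Atp5g3 had 169.9 and 199.96 CPM in control mice and 130.3 and 135 in surgery mice. It fell by 28.4% (log2 fold change -0.48 ± 0.09, edgeR adjusted p = 0.011), and its groups did not overlap. Atp5k, the e subunit, which helps to join ATP synthase into dimers (chr5:108433244-108434448, minus strand), was the least abundant member in CPM and had 20.2 and 25.3 CPM in control mice against 14.2 and 13.5 in surgery mice. It fell by 39.2% (log2 fold change -0.72 ± 0.14, edgeR adjusted p = 0.015). Without control mouse 2 its log2 fold change was -0.55 (adjusted p = 0.062), and over all alternatives its adjusted p ran from 0.0038 to 0.082.

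The peripheral stalk members Atp5f1 and Atp5j had no lower level that passed the test. Atp5f1, the b subunit of the stalk (chr3:105942698-105960099, minus strand), had 155 and 154 CPM in control mice and 192 and 173 in surgery mice. Both surgery mice were above both control mice (mean rise 18.0%, log2 fold change 0.24 ± 0.07, edgeR adjusted p = 0.049). The adjusted p was above 0.05 in 11 of 15 alternatives, among them leaving out control mouse 1, control mouse 2 or surgery mouse 1 (adjusted p = 0.12, 0.16 and 0.24), with adjusted p from 0.026 to 0.25 over all of them. Atp5j encodes coupling factor 6 of the stalk and had 74.7 and 72.5 CPM in control mice and 71.8 and 71.3 in surgery mice. The difference was small (log2 fold change -0.04 ± 0.07, edgeR adjusted p = 0.70), and library totals alone gave 0.0076. Exons of both genes overlap those of neighbors on the opposite strand. Of their 75 nt windows, 10.05% for Atp5f1 and 5.71% for Atp5j occur in other genes. For Atp5f1 these are Gm42890, with 6 and 9 counts in control mice and 14 and 13 in surgery mice (log2 fold change 0.95 ± 0.45, edgeR adjusted p = 0.17), and Wdr77, with 338 and 337 counts in control mice and 367 and 407 in surgery mice (edgeR adjusted p = 0.075), and for Atp5j it is Gabpa, with 321 and 282 counts against 532 and 531 (log2 fold change 0.93 ± 0.12, edgeR adjusted p = 0.0053).

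The unequal changes altered the mix of subunit transcripts. Of all member counts, the Fo genes made up 16.2% and 16.3% in control mice and 19.1% and 18.3% in surgery mice. With Atp5f1 left out they made up 11.98% and 12.5% against 12.7% and 12.5%, and the groups overlapped. Atp5f1 alone held 4.76% and 4.33% of member counts in control mice and 7.31% and 6.61% in surgery mice, and Atp5c1 held 5.003% and 4.70% against 6.21% and 6.38%. Atp5d went the other way, from 6.20% and 6.52% to 5.29% and 4.95%. Shares in both surgery mice were above both control mice for Atp5f1, Atp5c1 and Atp5j, and below for Atp5a1, Atp5b, Atp5d, Atp5e, Atp5g3 and Atp5k. Only that of Atp5g1 overlapped. In CPM, 32.2% of all genes tested lay below and 33.2% above in both surgery mice. The shares are parts of the same total, so that of Atp5c1 rose while its CPM overlapped between the groups. A share within a library does not depend on the scaling between libraries, but these shares were not corrected for transcript length or GC content.

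**Figure D2:**
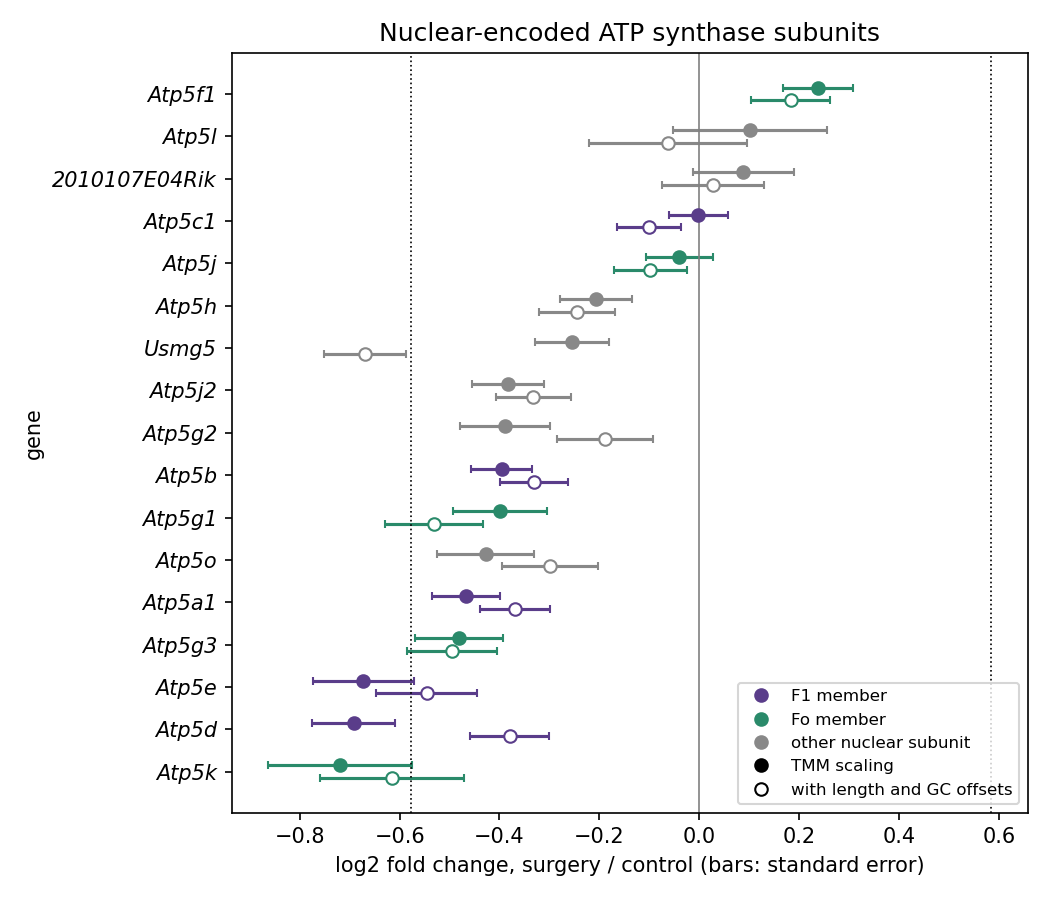
Log2 fold change of surgery against control mice for the 10 members and the other nuclear-encoded subunits, from edgeR, with bars for the standard error and dotted lines at the fold changes of 0.67 and 1.5. Atp5k, Atp5d and Atp5e lie furthest to the left, and Atp5f1 is the member furthest to the right.

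Levels were compared between genes per kilobase of their principal transcripts. In control mice the order ran from Atp5b (698 ± 33.2 CPM per kilobase, SD, n = 2) through Atp5a1 (435 ± 30.6), Atp5g3 (257 ± 29.6) and Atp5d (185 ± 17.7) to Atp5c1 (142 ± 2.26) and Atp5e (141 ± 11.9), which overlapped. Atp5j (98.9 ± 2.06), Atp5f1 (96.4 ± 0.643), Atp5k (61.4 ± 9.78) and Atp5g1 (44.1 ± 5.23) followed. In surgery mice Atp5b, Atp5a1 and Atp5g3 kept the first places, with 531, 315 and 184 CPM per kilobase. Atp5e stood at 88.4 ± 7.93, after Atp5j at 96.2 ± 0.438, and Atp5d (115 ± 5.37) overlapped with Atp5f1 (114 ± 8.13). The order rests on the principal transcripts. With the shortest and the longest annotated transcript, the level in control mice would be 197 and 24.9 CPM per kilobase for Atp5g1, 278 and 154 for Atp5d, 156 and 95.2 for Atp5c1, and 108 and 90.9 for Atp5j, so the places of these 4 genes, and with them those of Atp5g3, Atp5e, Atp5f1 and Atp5k, are not settled.

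**Figure D3:**
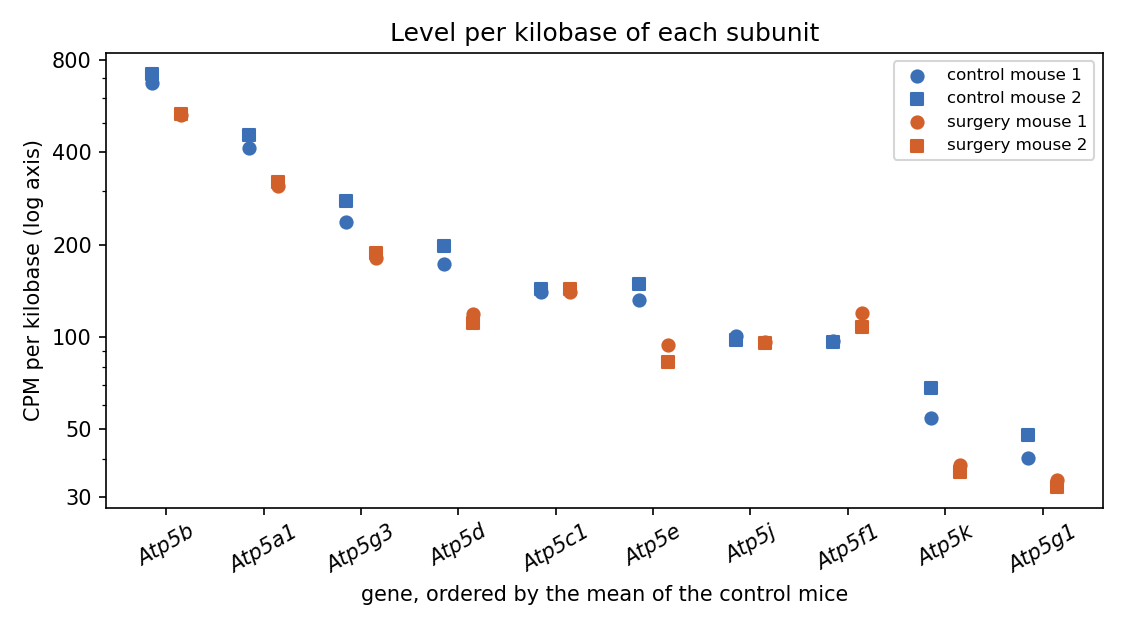
Level of each member in each mouse in CPM per kilobase of principal transcript (log axis), ordered by the mean of the control mice, with 1 point per mouse. Atp5b, Atp5a1 and Atp5g3 lead in both groups, and the surgery points of Atp5e and Atp5d lie below their control points.

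Fold change followed GC content across the members. The principal transcript of Atp5d had a GC content of 60.02%, the highest of the 10, followed by Atp5e (54.6%) and Atp5k (53.9%), and these are the 3 genes called lower. Atp5c1, Atp5f1 and Atp5j had 47.9%, 49.1% and 49.5%. Atp5g1 fell although its GC content was also 47.9%. That value averages 4 transcripts, from 46.8% (4660 nt) to 56.4% (596 nt), and rho and the corrected value of Atp5g1 below rest on it. Over the 10 members Spearman's rho between log2 fold change and GC content was -0.79, and over 17120 genes tested it was -0.65. Genes are not independent replicates, and the members' median GC content of 50.5% was close to the 50.2% of all genes. The correction moved Atp5d from -0.69 to -0.38, Atp5g3 from -0.48 to -0.49 and Atp5g1 from -0.40 to -0.53.

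**Figure D4:**
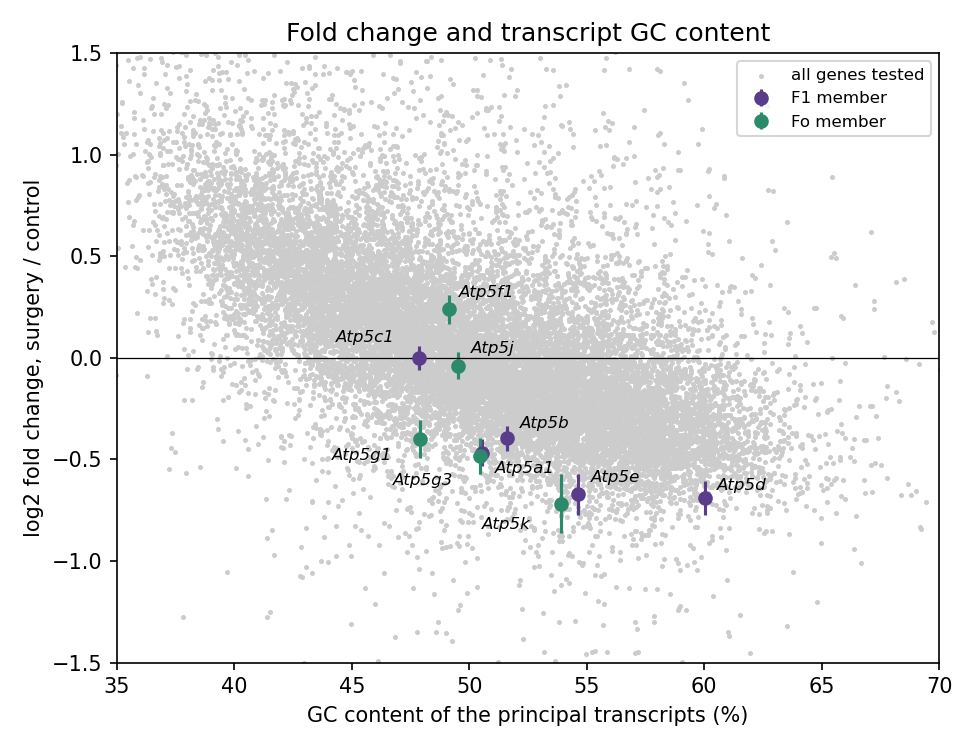
Log2 fold change of surgery against control mice by GC content of the principal transcripts (%), for all genes tested (grey) and the F1 and Fo members (colored and named). Genes with a higher GC content lie lower, Atp5d is furthest to the right among the members, and 250 of 17120 genes lie outside the axes.

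The promoters were read from RefSeq windows on GRCm38.p6, from 250 bases before to 50 after each start site, for the 9 members with a window. They were searched on both strands for CCGGAAG, the motif of GABP (NRF-2), a known regulator of nuclear genes for oxidative phosphorylation. The motif occurred in 3 of the 12 windows of these members (1 each of Atp5e, Atp5j and Atp5k) and in 8.86% of 32851 windows of all genes. Atp5e and Atp5k fell, Atp5j did not pass the test, and no match was found in the windows of Atp5d. The stretches before Atp5e and Atp5k are shown for the called genes that have bases outside annotated exons there, and the run in Atp5j shows a match in a gene that was not called. All 3 are on the minus strand and are written 5′ to 3′, with matches in capitals. In Atp5e the match is the reverse complement and starts at position -102 relative to the start site, and in Atp5j it starts at -61 relative to the more downstream of 2 start sites, while the window of the other held no match. The match of Atp5k lies after its start site, outside the stretch shown.
Atp5e, chr2:174464106-174464225: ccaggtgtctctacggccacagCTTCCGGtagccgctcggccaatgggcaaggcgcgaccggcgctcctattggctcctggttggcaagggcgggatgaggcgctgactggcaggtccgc
Atp5k, chr5:108434449-108434568: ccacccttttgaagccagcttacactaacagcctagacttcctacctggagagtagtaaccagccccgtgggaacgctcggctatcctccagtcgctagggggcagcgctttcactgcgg
Atp5j, chr16:84835019-84835048: agctgagggacCCGGAAGcacttaccctcc

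The 7 other nuclear-encoded subunits gave a median log2 fold change of -0.25, with 4 of 7 lower at an adjusted p under 0.05, beside 12.8% of all genes tested, and none called with the fold change required by edgeR or DESeq2. Over all 17 nuclear-encoded subunits, 11 were lower and 1 was higher at an adjusted p under 0.05 by edgeR, beside 12.8% and 13.1% of all genes. Those 4 were Atp5g2, the remaining c subunit gene (-0.39 ± 0.09, edgeR adjusted p = 0.024), Atp5j2, the f subunit (-0.38 ± 0.07, 0.012), Atp5o, which encodes OSCP at the top of the peripheral stalk (-0.43 ± 0.10, 0.022), and Usmg5, a small dimer subunit (-0.25 ± 0.07, 0.048). Atp5h, the d subunit, missed the threshold (-0.21, 0.080), as did Atp5l, the g subunit (0.10, 0.67), and 2010107E04Rik, a small proteolipid subunit (0.09, 0.56). Of the 4 genes only Usmg5, with a log2 fold change of -0.67, passed after the length and GC correction (adjusted p = 0.031; 0.0023 to 0.18 over all alternatives). Each of the 4 had an adjusted p above 0.05 without some mouse. For Atp5g2 this was without control mouse 1 (0.052), control mouse 2 (0.073) or surgery mouse 1 (0.067), for Atp5o without control mouse 2 (0.078) or surgery mouse 2 (0.072), for Atp5j2 without surgery mouse 2 (0.0503), and for Usmg5 without any one of the mice (0.083 to 0.18), all adjusted by edgeR. Shared sequence limits Atp5g2 and Atp5o, since 35.8% and 34.2% of their 75 nt windows occur in other genes.

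The c subunit is made from 3 genes, and with 2 mice a group a test of their mix cannot reach an exact p of 0.05. Atp5g3 gave 50.9% and 52.0% of c subunit counts in control mice and 49.7% and 50.3% in surgery mice, Atp5g1 gave 32.2% and 33.1% against 34.9% and 32.4%, and Atp5g2 gave 16.9% and 14.9% against 15.4% and 17.3%. The groups did not overlap for Atp5g3 and overlapped for Atp5g1 and Atp5g2. Per kilobase of principal transcript the order of the last 2 was the other way round. Mean shares in control mice were then 64.55% for Atp5g3, 24.4% for Atp5g2 and 11.05% for Atp5g1. This order rests on an average length of 2666 nt for Atp5g1. With its shortest transcript Atp5g1 would stand at 197 CPM per kilobase in control mice, against 96.8 for Atp5g2 with its principal transcripts, so the order is not settled. On the count scale the differences were -1.44 percentage points for Atp5g3 (exact permutation test, two-sided, p = 0.333, the smallest that 2 against 2 mice allow), 0.965 for Atp5g1 and 0.471 for Atp5g2 (both p = 0.667 by the same exact test). Per kilobase the shares of all 3 genes overlapped between the groups (exact permutation test, p = 0.667 for each). On the count scale the difference of Atp5g3 stayed between -2.01 and -0.864 when single mice were left out. Those of Atp5g1 and Atp5g2 changed sign when single mice were left out, with Atp5g1 at -0.297 without surgery mouse 1, and Atp5g2 at -0.555 without control mouse 2 and -0.47 without surgery mouse 2.

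The a subunit gene mt-Atp6, encoded by mitochondrial DNA, went against the nuclear genes. It had 10.7 and 7.28 CPM in control mice and 21.0 and 23.3 in surgery mice, with no overlap (log2 fold change 1.30 ± 0.19, edgeR adjusted p = 0.0066). Its log2 ratio to the summed members was -8.25 and -8.93 in control mice and -6.96 and -6.81 in surgery mice, a difference of 1.70 (exact permutation test, two-sided, p = 0.333, the smallest possible). This count is uncertain, since 99.5% of the 75 nt windows of mt-Atp6 also occur in the nuclear copy Gm10925, which had 518 and 451 counts in control mice and 1328 and 1329 in surgery mice. Gm10925 was higher (log2 fold change 1.57 ± 0.11, edgeR adjusted p = 0.0039), and stayed higher with the length and GC correction (0.60 ± 0.09, edgeR adjusted p = 0.043). With the length and GC correction mt-Atp6 was at 0.32 (adjusted p = 0.28; 3.6e-06 to 0.29 over all alternatives). The subunit gene mt-Atp8 was not analysed here.

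None of the 7 genes for the inhibitor and for assembly or coupling factors passed the test by edgeR with TMM scaling, DESeq2 or limma-voom. By edgeR 3 had an unadjusted p under 0.05 (Atpif1, Fmc1 and Tmem242). Atpif1, the inhibitor that blocks ATP hydrolysis when the proton gradient fails, had 8.77 and 9.74 CPM in control mice and 6.08 and 6.64 in surgery mice. The groups did not overlap (log2 fold change -0.54 ± 0.17, edgeR adjusted p = 0.061), and 19.9% of its 75 nt windows occur in Gm12999. Fmc1, an assembly factor, stood at -0.55 ± 0.19 (adjusted p = 0.083). Tmem242 stood on the other side, at 0.31 ± 0.10 (edgeR adjusted p = 0.062), with both surgery mice above both control mice. Some alternative fit gave Tmem242 an adjusted p under 0.05. The carriers that bring phosphate (Slc25a3) and exchange ADP for ATP (Slc25a4 and Slc25a5) were lower in all 3 cases at an adjusted p under 0.05, beside 12.8% of all genes tested, with log2 fold changes of -0.27, -0.22 and -0.34, and none was called with the fold change required by edgeR or DESeq2. Without control mouse 2 the adjusted p was above 0.05 for each of them (0.095, 0.149 and 0.113), as it was without surgery mouse 2 (0.07, 0.15 and 0.09), and for Slc25a4 also without control mouse 1 (0.062). After the length and GC correction 0 of 3 passed, beside 0.929% of all genes lower, with 2 at an unadjusted p under 0.05 by edgeR. Of the 75 nt windows of Slc25a5, 19.8% occur in other genes.

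The genes whose profile over the 4 libraries lay nearest to the mean profile of the members were Herc2, Anapc16, Sergef, Aurkaip1 and Atmin, among 10354 genes with a mean of at least 10 CPM. Their Euclidean distances in centered log2 CPM were 0.0145 to 0.0235, against 0.0596 to 0.61 for the members themselves. These 5 genes were picked for their closeness to that mean, over 4 libraries.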

How the data were processed

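The authors mapped paired-end reads to mm10 and deposited, per gene and mouse, raw counts without normalization. The submitters' processing notes name HISAT2 2.1.0, HTSeq 0.6.0, Bowtie2 2.2.3 and TopHat2, with no roles given there. Columns of the authors' own comparison (mean signal, fold change, p-values) were not used. All other per-sample columns were matched to mice by name. Counts were filtered (edgeR filterByExpr, minimum count 10), scaled by TMM and tested in R 4.3.3 with edgeR 4.0.16 (quasi-likelihood F test, condition only, Benjamini-Hochberg adjustment), at an adjusted p of 0.05 and fold changes of 0.67 and 1.5. CPM were computed from the counts with TMM factors. Alternatives used limma 3.58.1, DESeq2 1.42.0 and offsets for each library's smooth trends with transcript length and GC content (mgcv 1.9.3, basis size 8). DESeq2 gave the lowest adjusted p over all alternatives for Atp5d, Atp5e, Atp5g1 and Atp5k. Transcript lengths, GC contents, overlaps and shared 75 nt windows came from GENCODE M21, which holds 29238 of the 29300 gene identifiers, and promoters from RefSeq. Principal transcripts are those APPRIS marks.

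Replicates were separate mice, and both pairs differed by more than counting error (chi-square per degree of freedom 13.4 in control and 8.45 in surgery mice). The genes named by rule are the 10 members, listed genes of the same enzyme and its carriers, and the 5 genes nearest to the mean profile of the members by Euclidean distance. Markers, genes with overlapping exons and near-identical copies are named beside the values they bear on, chosen after their values were seen. The members and lists were chosen with earlier results of these data known. Marker lists for 8 cell types or regions and for RNAs retained in nuclei are reported as summed CPM. The procedures were tested on simulated counts.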

Additional observations from a re-analysis of the deposited data

How the results depend on the processing

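Of the 10 members, 8 had an adjusted p under 0.05 by edgeR. The number was 0 with the length and GC correction, 1 with the correction computed from principal transcripts (chosen after seeing the data), and 5 to 7 when single mice were left out, the lowest without control mouse 2. In these fits the genes tested that passed fell from 4449 to 265 and 245. With the fold change of 0.67 required, 3 of the 10 members were called lower. That number was 0 with the length and GC correction, 0 with principal transcripts, 1 with the correction and the replicate number as a block, and 2 to 4 without single mice, with 4 without control mouse 1 and 2 without control mouse 2. With any fold change accepted, 7 were lower and 1 was higher, in place of 3 and 0. The F1 median of -0.47 was -0.37 with the correction, -0.37 with correction and block, -0.38 with principal transcripts, and -0.54 to -0.40 without single mice. The Fo median of -0.40 was -0.49 with the correction, -0.49 with correction and block and -0.50 with principal transcripts, below the F1 median in each, and ran from -0.52 to -0.28 without single mice. Among single genes, Atp5c1 turned positive with library totals only (0.045) and lay between -0.024 and 0.011 without single mice, and Atp5j turned positive with library totals (0.0076). The share of Atp5g1 among c subunit counts moved from -0.297 to 2.23 percentage points, that of Atp5g2 from -0.555 to 1.496 and that of Atp5g3 from -2.01 to -0.864 without single mice. The mt-Atp6 ratio ran from 1.36 to 2.04, and was 1.89 with the nuclear copy added (chosen after seeing the data). Why these values changed was not tested, beyond the smaller number of mice when one was left out.

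The replicate numbers were not taken as pairs, since the labels name no shared batch. The deviations of samples with the same number correlated at 0.22 over 17144 genes, with 2 pairs. With the replicate number as a block, 8 members passed as before among 5281 genes that passed, and with the block and the correction together 7 did among 2301. Outside the corrections without the block, Atp5d, Atp5e and Atp5k kept an adjusted p under 0.05 in every alternative run, except Atp5k without control mouse 2 (0.062). Each member had at least 226 counts in every library. On counts simulated for this comparison over 16793 genes, edgeR recovered 92 of 100 genes doubled or halved and 53 of 100 changed 1.5-fold. It also called 24 unchanged genes at an adjusted p under 0.05. Unlike the data, these counts held no trend with transcript length or GC content, so they do not bear on calls that the correction changed.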
